A study of Rattus norvegicus with 5 samples.

Results

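RT1 is the major histocompatibility complex of the rat, the gene region whose products display peptides to T cells. Class II molecules pair an alpha and a beta chain, are carried mainly by B cells, dendritic cells and macrophages, and show peptides taken up from outside the cell. Class I molecules sit on most cells and show peptides made inside, and the non-classical class I genes, to which the T24 genes belong, are less well understood. Here 4 RT1 genes were followed, chosen by their symbols: RT1-Bb and RT1-Da of class II and RT1-T24-1 and RT1-T24-3 of class I. They are 4 of the 1800 gene symbols that occur in the authors' 9 distinct deposited tables, and each had 1 gene model throughout.

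RNA sequencing was done on lung tissue of 5 Sprague Dawley rats, an outbred strain, with 1 library per group. The normoxic male was not screened and served as the reference. The other 4 rats had been sorted by the time to their first gasp in acute hypobaric hypoxia and, after a week, were kept for 1 h at 9144 m in a decompression chamber before their lungs were taken. The susceptible male gasped in under 5 min, the normal male (also called moderate) between 15 and 20 min, the tolerant male after more than 45 min and the tolerant female after more than 1 h.

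Each table sets 1 library against another and holds only the genes that passed a fold of 2 and an FDR-corrected p of 0.05. All folds and p-values are those of the authors and compare libraries, since 1 library per group leaves no spread between animals. A gene outside a table has no value there, which does not show that it was unchanged. An FDR-corrected p of 0 stands for a value too small to be stored. The depth of the libraries is unknown. The labels do not give the RT1 alleles of the rats, and a difference between conditions and a difference between animals cannot be told apart. The tolerant female was the only female, so that sex cannot be told apart from tolerance in her comparisons.

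The promoters of the members are shown first, with the letters that the class II genes share and the run that the T24 genes share. The sequences are those of RefSeq on the build GRCr8, which held all 4 members, and cover the 250 bases before each gene's start, 5′ to 3′ on the strand of the gene. Class II promoters are known for an X box and a Y box at a near-fixed distance. In the class II promoters the capitals mark the letters AGNNACNGATG (called X) and GATTGG (called Y). The RT1-Bb stretch is chr20:4604119-4604368 on the minus strand and the RT1-Da stretch is chr20:4515165-4515414 on the plus strand.
RT1-Bb: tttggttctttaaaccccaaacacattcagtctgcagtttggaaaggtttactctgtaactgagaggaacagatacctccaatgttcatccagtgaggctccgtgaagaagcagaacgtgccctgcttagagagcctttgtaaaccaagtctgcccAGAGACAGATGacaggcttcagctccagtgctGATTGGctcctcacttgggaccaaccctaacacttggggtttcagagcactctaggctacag
RT1-Da: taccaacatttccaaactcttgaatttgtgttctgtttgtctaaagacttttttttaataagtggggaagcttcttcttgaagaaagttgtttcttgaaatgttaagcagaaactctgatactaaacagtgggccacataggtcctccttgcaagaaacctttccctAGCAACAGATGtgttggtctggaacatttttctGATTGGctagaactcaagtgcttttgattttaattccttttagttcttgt

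X began 94 bases before the gene start in RT1-Bb and 83 bases before it in RT1-Da, with 21 and 22 bases between X and Y. Searched on both strands of the 33469 promoters in the table, X occurred in 0.753% and Y in 13.3%. X followed by Y on the same strand, 18 to 24 bases apart, occurred in 5 promoters (0.0149%), namely those of RT1-Bb, RT1-Da, RT1-Db1, RT1-Db2 and RT1-DOb. The letters of X are those shared by the promoters of RT1-Bb, RT1-Da, RT1-Db1 and RT1-DOb, with N where they differ, so their occurrence in these promoters is a description. Of 10 promoters searched for class II genes and Cd74, 5 held the pair and 9 held Y on the strand of the gene. A promoter without the letters of X may still hold an X box, since the letters were read from 4 promoters alone. RT1-Ba, whose product pairs with that of RT1-Bb, held Y without X as written. Stretches of 70 bases from its promoter (chr20:4576963-4577032, plus strand) and from those of RT1-Db1 (chr20:4560224-4560293, minus strand) and RT1-DOb (chr20:4627588-4627657, minus strand) show the difference, with X and Y in capitals.
RT1-Ba: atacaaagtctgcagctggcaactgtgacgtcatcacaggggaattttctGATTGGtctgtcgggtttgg
RT1-Db1: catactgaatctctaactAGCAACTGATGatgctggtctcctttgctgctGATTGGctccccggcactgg
RT1-DOb: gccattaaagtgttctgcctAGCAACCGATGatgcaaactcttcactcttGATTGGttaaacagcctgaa

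The T24 promoters held Y but not the X and Y pair. They shared a run of 38 bases, marked in capitals, which starts 50 bases before the start of RT1-T24-1 and 94 bases before that of RT1-T24-3. That run occurred in 3 of the 33469 promoters, the third being that of LOC134483846, also on chromosome 20. The stretches are chr20:2766054-2766303 for RT1-T24-1 and chr20:2722875-2723124 for RT1-T24-3, both on the plus strand.
RT1-T24-1: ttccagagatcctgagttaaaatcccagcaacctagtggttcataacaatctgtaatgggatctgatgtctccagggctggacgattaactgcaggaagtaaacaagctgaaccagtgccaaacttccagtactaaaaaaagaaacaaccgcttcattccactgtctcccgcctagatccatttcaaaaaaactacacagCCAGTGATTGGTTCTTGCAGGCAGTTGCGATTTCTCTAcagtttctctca
RT1-T24-3: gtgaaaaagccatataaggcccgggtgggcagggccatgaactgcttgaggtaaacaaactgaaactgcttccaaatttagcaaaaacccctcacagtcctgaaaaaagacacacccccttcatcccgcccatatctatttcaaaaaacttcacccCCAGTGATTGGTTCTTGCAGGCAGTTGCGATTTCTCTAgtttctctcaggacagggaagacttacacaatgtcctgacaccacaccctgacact

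Among the 4 male libraries the 2 class II genes were highest in the normal male, and the 2 T24 genes were higher in the tolerant male than in the libraries they were listed against. Of the 9 tables, 3 listed RT1-Bb, 3 listed RT1-Da, 2 listed RT1-T24-3 and 1 listed RT1-T24-1. The tolerant male over the normal male was the one comparison whose table listed all 4 members, the class II pair lower and the T24 pair higher. Over the 1823 gene models listed in any table, that table listed 42.2%. The tables of the normal male over the normoxic male and over the susceptible male listed 2 members each, RT1-Bb and RT1-Da, both higher, beside 49.4% and 58.2% of the 1823 gene models. The table of the tolerant male over the susceptible male listed 1 member, RT1-T24-3, beside 7.41%. No member was listed for the susceptible male, the tolerant male or the tolerant female over the normoxic male, where the tables held 14.3%, 14.5% and 13.8% of the gene models. None was listed for the tolerant female over the susceptible or the normal male either, beside 9.54% and 33.1%.

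**Figure D1:**
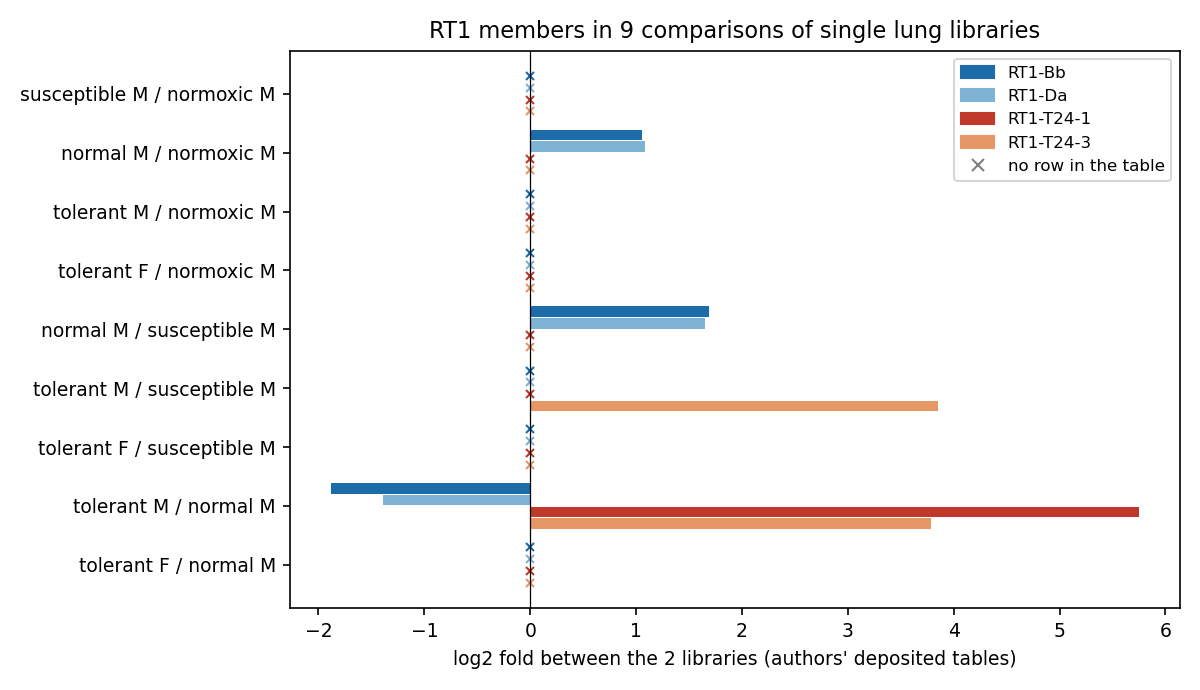
Log2 fold of each member (bars, x axis) in each of the 9 comparisons of 2 single libraries (y axis, first library over second, M male, F female), as the authors deposited it. Crosses mark members with no row, which is not a value of 0. The class II bars appear in the 3 comparisons of males that include the normal male, and the T24 bars in those of the tolerant male over the susceptible or the normal male.

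RT1-Bb encodes the beta chain of the class II molecule RT1.B, the counterpart of mouse I-A and human HLA-DQ. Its gene model lies on chromosome 20 from 4729928 to 4736223 in the authors' coordinates, whose build is not stated in the labels or headers. RT1-Bb was 2.08-fold higher in the normal male than in the normoxic male and 3.22-fold higher than in the susceptible male in the authors' deposited tables, with an FDR-corrected p of 0 in both. In the tolerant male it was 3.69-fold lower than in the normal male in the authors' deposited table, again with an FDR-corrected p of 0. The normal male thus had the highest level of RT1-Bb among the 4 male libraries, and the tolerant female has no value for this gene.

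RT1-Da encodes the alpha chain of the class II molecule RT1.D, the counterpart of mouse I-E and human HLA-DR. Its model lies on chromosome 20 from 4636303 to 4641282 in the authors' coordinates. RT1-Da was 2.12-fold higher in the normal male than in the normoxic male and 3.14-fold higher than in the susceptible male in the authors' deposited tables. It was 2.63-fold lower in the tolerant male than in the normal male in the authors' deposited table. The FDR-corrected p was 0 in all 3 rows of RT1-Da in the authors' deposited tables, as it was in 13.0% to 15.6% of all rows of those tables. RT1-Da therefore followed the same direction as RT1-Bb in each of the 3 tables, and it too has no value in the tolerant female.

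All 6 of these rows include the normal male library, and the 4 tables that contain it are the longest, with 604 to 1061 gene models against 135 to 264 in the other 5. Without that library no row of RT1-Bb or RT1-Da is left. Folds between the other libraries were derived by adding log2 folds through the normal male, and they carry no p-value. By these derived folds RT1-Bb was 1.55-fold lower in the susceptible male and 1.78-fold lower in the tolerant male than in the normoxic male. RT1-Da was 1.48-fold and 1.24-fold lower in the same order. RT1-Bb was 1.15-fold lower and RT1-Da 1.19-fold higher in the tolerant male than in the susceptible male by derived folds. The order of RT1-Bb from high to low was thus normal, normoxic, susceptible and tolerant male, and that of RT1-Da was normal, normoxic, tolerant and susceptible male. No spread can be given, and no neighbours below the normal male differ by a fold of 2, the limit for listing.

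The partner chains were listed beside both genes in 2 of these 3 tables, and neither they nor Cd74 had a row for the normal male over the normoxic male. RT1-Ba, the alpha chain that pairs with RT1-Bb, was 2.98-fold higher in the normal male than in the susceptible male and 2.39-fold lower in the tolerant male than in the normal male in the authors' deposited tables. RT1-Db1, a beta chain that pairs with RT1-Da, was 3.00-fold higher and 2.55-fold lower in the same comparisons in the authors' deposited tables. Relative to RT1-Db1, RT1-Da changed by a factor of 1.05 in the first comparison and 0.971 in the second. Relative to RT1-Ba, RT1-Bb changed by a factor of 1.08 in the first and 0.648 in the second. In the tolerant male RT1-Bb was therefore lower than in the normal male by more than its partner chain, a gap of 0.63 on the log2 scale to which no error can be given. Cd74, the invariant chain that escorts class II molecules, was 2.29-fold higher and then 2.12-fold lower in the authors' deposited tables.

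**Figure D2:**
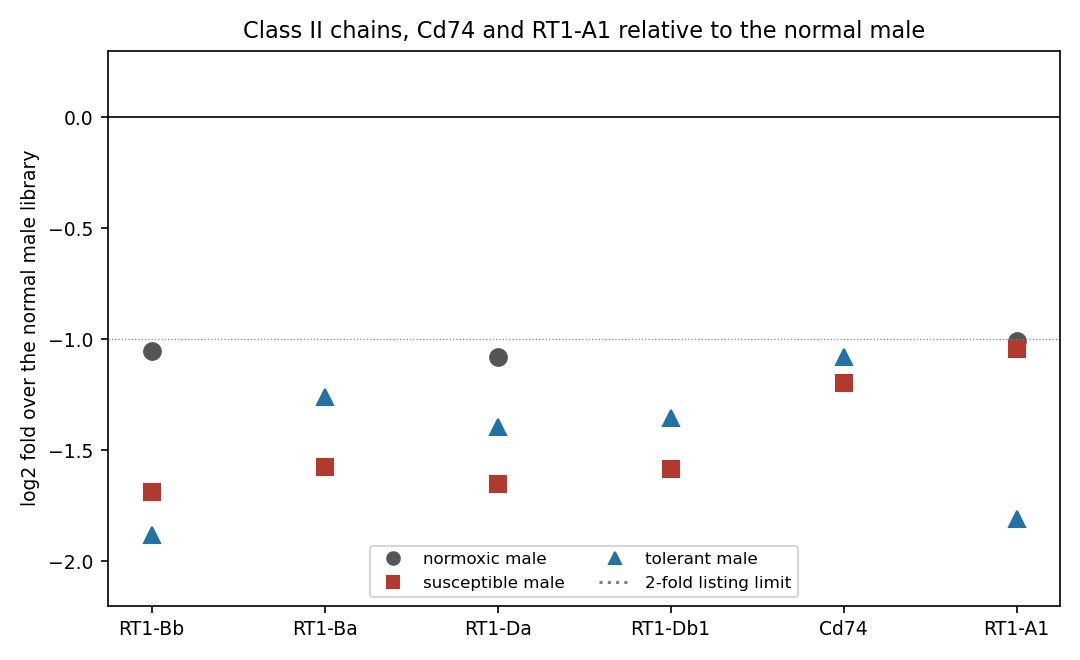
Log2 fold over the normal male library (y axis) of 4 class II chains, Cd74 and the class I gene RT1-A1 (x axis) in the normoxic, susceptible and tolerant male, from the authors' deposited tables. Every plotted point lies below the 2-fold limit for listing (dotted line). RT1-Bb and RT1-A1 are lowest in the tolerant male, and RT1-Ba, RT1-Da, RT1-Db1 and Cd74 in the susceptible male.

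RT1-T24-1 and RT1-T24-3 are non-classical class I genes related to mouse H2-T24, whose role in the rat is not well known. RT1-T24-1 (chromosome 20, 2907192 to 2923144 in the authors' coordinates) was 53.9-fold higher in the tolerant male than in the normal male in the authors' deposited table, with an FDR-corrected p of 0.0315. By fold it stood at rank 5 of the 285 rows that were higher in that table. RT1-T24-3 (chromosome 20, 2863924 to 2871315) was 13.8-fold higher in the tolerant male than in the normal male in the authors' deposited table, with an FDR-corrected p of 0.00391 and rank 16 of 285.

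Against the susceptible male, RT1-T24-3 was 14.4-fold higher in the tolerant male in the authors' deposited table, at rank 5 of 74 higher rows and with an FDR-corrected p of 0.0106. By these 2 folds it differed by a factor of 1.04 between the normal and the susceptible male, with no p-value. The tolerant male was thus far above both other exposed males for RT1-T24-3, while its level relative to the normoxic male and the tolerant female has no value. RT1-T24-1 has a value for 1 pair of libraries alone. The T24 genes are close copies, and the treatment of reads that match several copies is not stated in the labels or headers, so both values are uncertain as to which copy the reads came from.

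The T24 folds were larger than the class II folds, and their p-values were less small. By fold, RT1-Bb and RT1-Da stood at ranks 412 and 403 of the 439 higher rows for the normal male over the normoxic male. Their ranks were 376 and 384 of 650 higher rows for the normal male over the susceptible male. For the tolerant male over the normal male they were 286 and 363 of 491 lower rows. In the table of the tolerant male over the normal male, RT1-Bb and RT1-Da had an FDR-corrected p of 0 at folds below 4, whereas RT1-T24-1, with a fold over 50, was among the 22.3% of rows above an FDR-corrected p of 0.01 in the authors' deposited table.

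**Figure D3:**
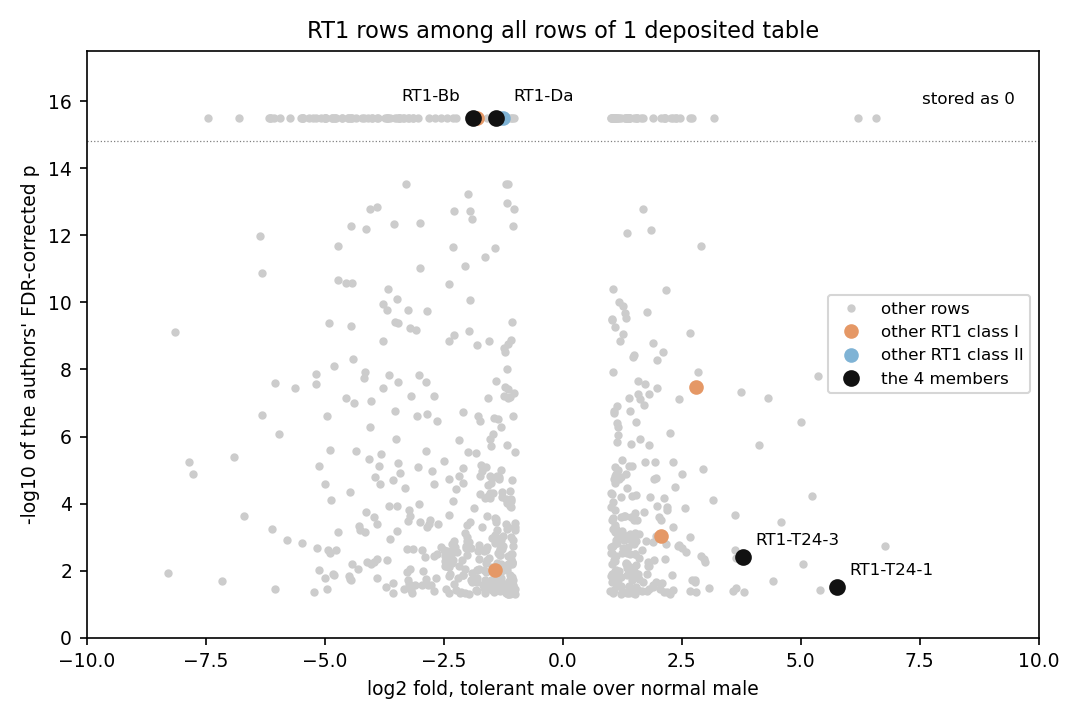
Log2 fold (x axis) and −log10 of the FDR-corrected p (y axis) of all rows with a finite fold in the authors' deposited table of the tolerant male over the normal male. Values of p stored as 0 are drawn in a band above the dotted line, at no true height. RT1-Bb and RT1-Da lie in that band on the lower side, and RT1-T24-1 and RT1-T24-3 lie low on the higher side.

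Other RT1 genes went in 2 directions in the comparison of the tolerant male with the normal male. Besides the 4 members, 11 other entries with an RT1 symbol were listed, all on chromosome 20. In the table of the tolerant male over the normal male, 4 class I genes were higher and 2 lower, and all 4 listed class II genes were lower. Of all rows there, 63.3% were lower. The class I genes that were higher lie before the class II genes in the authors' coordinates: RT1-T24-3, RT1-T24-1, RT1-CE8, which RefSeq lists as a pseudogene, and RT1-CE1. In the authors' deposited table RT1-CE1, a class I gene of the C/E region, was 7.01-fold and RT1-CE8 4.20-fold higher. The class I genes that were lower lie beyond the class II genes: RT1-A1, a classical class I gene, was 3.50-fold and RT1-A3 2.69-fold lower according to the authors' deposited table.

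The tolerant male was also above other libraries for further genes of the C/E region. RT1-CE8 was 3.87-fold higher than in the susceptible male and 2.70-fold higher than in the normoxic male in the authors' deposited tables. RT1-CE2 was 2.00-fold higher than in the susceptible male in the authors' deposited table, and the same locus, there named id205054, was 3.29-fold higher than in the normal male. RT1-CE8 was the 1 RT1 row in the table of the tolerant male over the normoxic male, with an FDR-corrected p of 0.0451 in the authors' deposited table.

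RT1-A1 was listed in the same 3 tables as RT1-Bb and in the same directions. It was 2.01-fold higher in the normal male than in the normoxic male and 2.06-fold higher than in the susceptible male in the authors' deposited tables. In the table of the normal male over the susceptible male all 9 RT1 rows were higher, 6 of class II and 3 of class I. Of all rows there, 650 of 1069 were higher. RT1-DOb, a chain of the class II modulator DO, was 4.03-fold higher with an FDR-corrected p of 0.0492, and RT1-DMb, a chain of the peptide editor DM, 2.05-fold higher in the authors' deposited table. RT1-N3, a non-classical class I gene, was 3.19-fold higher there and 3.92-fold lower in the tolerant female, compared with the normal male, in the authors' deposited tables. A locus holding RT1-CE10 and 2 further symbols was 2.58-fold higher in the normal male than in the normoxic male and 2.35-fold lower in the tolerant female, compared with the normal male, in the authors' deposited tables. These were the 2 RT1 rows listed in any comparison of the tolerant female.

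**Figure D4:**
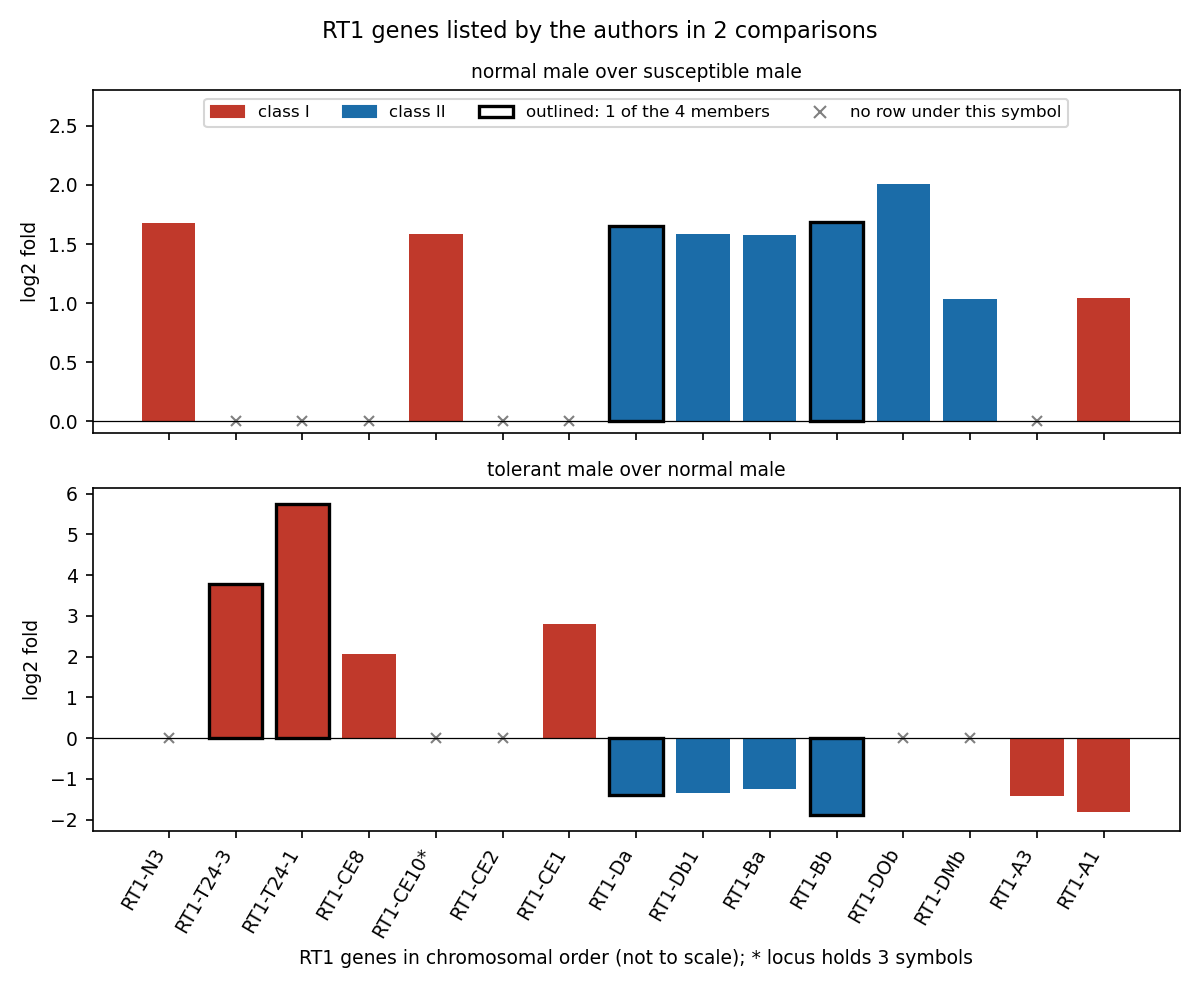
Log2 fold (y axis) of every RT1 gene in the authors' tables, in chromosomal order on the x axis and not to scale, for the normal male over the susceptible male (upper panel) and the tolerant male over the normal male (lower panel). All 9 bars of the upper panel point up, in a comparison where 650 of 1069 rows were higher. In the lower panel the 4 class I genes before class II point up, and the class II genes and the RT1-A genes point down. In that comparison 63.3% of all rows were lower. The locus of RT1-CE2 is listed under another symbol in the second table and is drawn as a cross.

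Among listed genes within 1000000 bases of a member that are not RT1 genes by symbol, the table of the tolerant male over the normal male held 8 rows, 7 of them lower, where 63.3% of all rows of that table were lower. The remaining row is the locus of RT1-CE2 named id205054. Hspa1a and Hspa1b, inducible heat shock genes that lie between the C/E class I genes and the class II genes, were 2.47-fold and 2.69-fold lower in the authors' deposited table. Neu1, a lysosomal sialidase, was 2.50-fold and Slc44a4, a choline transporter-like gene, 2.65-fold lower in the authors' deposited table. Near the T24 genes, which were higher, the authors' deposited table put LOC100362623 14.5-fold and E030032D13Rik 2.22-fold lower.

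The class II pathway list of 23 symbols had 8 members that were higher in the normal male than in the susceptible male and none lower, and their median log2 fold was 1.58 against 1.21 over all rows of the authors' deposited table. The gene model of March1, a ligase that removes class II molecules from the cell surface, was also 2.10-fold higher there under an entry turned into a date, which makes 9 with a median of 1.57 in the authors' deposited table. For the tolerant male over the normal male 5 of 23 were listed, all lower, with a median of -1.35 against -1.32 over all rows of the authors' deposited table. For the normal male over the normoxic male 2 of 23 were listed, RT1-Bb and RT1-Da, with a median of 1.07 against -1.03 over all rows. Every row has a fold of at least 2, so the median over all rows pools the higher and the lower side. It is therefore no like measure for a list that lies on 1 side. Of all rows, 650 of 1069 were higher for the normal male over the susceptible male. For the tolerant male over the normal male 491 of 776 were lower, and for the normal male over the normoxic male 439 of 906 were higher.

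Ciita, the transactivator that controls class II genes, shared its direction with RT1-Bb and RT1-Da for the normal male over the susceptible male. It did not share it, by a derived fold, for the normal male over the normoxic male. In the susceptible male Ciita was 3.33-fold below the normoxic male in the authors' deposited table. It was 2.92-fold higher in the normal male and 2.47-fold higher in the tolerant female than in the susceptible male in the authors' deposited tables. The derived fold, which carries no p-value, put Ciita 1.14-fold lower in the normal male than in the normoxic male. RT1-Bb and RT1-Da were listed as higher there. For the tolerant male Ciita has no value in the authors' deposited tables.

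Of the 55 symbols on the class I pathway list, 3 were listed for the normal male over the susceptible male, all higher, and 6 for the tolerant male over the normal male, 4 higher and 2 lower. With gene models that the second table lists under another symbol there were 8, 5 higher and 3 lower, the additions being RT1-CE2 and Psme2. The first 3 included Psme2, a subunit of the proteasome activator, at 7.09-fold higher in the authors' deposited table. Its gene model was 2.81-fold lower in the tolerant male than in the normal male in the authors' deposited table. Lnpep, a peptide-trimming aminopeptidase, was 2.93-fold higher there, and the T24 genes, RT1-CE1 and the locus of RT1-CE2 made up the other higher genes in the authors' deposited table.

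Markers of the cells that carry class II molecules moved with RT1-Bb and RT1-Da in some comparisons and not in others. In bulk tissue, fewer cells of a type and less RNA per cell cannot be told apart. For the normal male over the susceptible male, 9 of 14 B cell markers, counted here by symbol, were higher and none lower in the authors' deposited table. Their median log2 fold was 2.53 against 1.21 over all rows, of which 650 of 1069 were higher. The dendritic cell genes Clec9a and Cd83, 2 of 9 on their list, were 2.97-fold and 2.75-fold higher according to the authors' deposited table. For the tolerant male over the normal male, 3 of 14 B cell markers (Cr2, Blk and Pou2af1) and the same dendritic cell genes were lower, Clec9a by 3.32-fold and Cd83 by 2.58-fold in the authors' deposited table. These counts stand beside 42.2% of the 1823 gene models listed in that comparison, and 63.3% of its rows were lower. No level per library is given, so that which markers are at 0 cannot be read, and the part of these cells in the class II values was not tested.

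In the normal male over the normoxic male no B cell marker was higher, and Cd22, an inhibitory receptor of B cells, was 2.91-fold lower in the authors' deposited table. Of the 10 macrophage markers 2 were listed there, Mertk at 2.34-fold and Mrc1 at 2.08-fold higher according to the authors' deposited table. Mertk was also 2.17-fold higher in the normal male than in the susceptible male in the authors' deposited table. In the tolerant male Mertk was 2.28-fold lower than in the normal male, so that its directions were those of RT1-Bb and RT1-Da. These directions were not particular to a macrophage marker. The club cell gene Scgb3a2 was 2.25-fold higher, 2.50-fold higher and 2.07-fold lower in the same 3 comparisons in the authors' deposited tables. All 3 comparisons share the normal male library, and 349 gene models had a finite fold in each of them. Mrc1 had no row in these further comparisons. The tolerant female had 7 of 14 B cell markers below the normal male, with a median log2 fold of -2.06 against -1.30 over all rows of the authors' deposited table. Of those rows 64.4% were lower, and no class II gene was listed there. Against the normoxic male, 8 of 14 B cell markers were lower in the susceptible male and 7 in the tolerant female, again beside no listed RT1 gene of class II. Cd83 was 2.44-fold lower in the tolerant female against the normal male in the authors' deposited table. Ms4a1, which encodes CD20, was 6.73-fold and Cd79b, part of the B cell receptor, 5.20-fold lower there in the authors' deposited table. The macrophage marker Vsig4 was 21.6-fold higher in the tolerant female than in the normal male in the authors' deposited table.

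Of the 27 interferon response symbols, 4 were listed for the normal male over the susceptible male, all higher, as were 650 of 1069 rows. Cxcl9, a chemokine induced by interferon gamma, was 8.97-fold, Irf1, a transcription factor of the same response, 2.42-fold and Ubd, a ubiquitin-like protein that lies near class I genes in several mammals, 44.3-fold higher in the authors' deposited table. For the tolerant male over the normal male, 6 were listed in 2 directions, and with the gene model of Irf7, which carried another symbol and was 2.03-fold higher in the authors' deposited table, there were 7. Cxcl9 was 5.00-fold and Ubd 12.8-fold lower, on the side of the class II genes, whereas Ifit3, Ifit2, Mx2 and Mx1, known as targets of type I interferon, were 3.71-, 2.37-, 2.34- and 2.16-fold higher, on the side of the T24 genes, in the authors' deposited table. The part of interferon in the RT1 values was not tested.

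**Figure D5:**
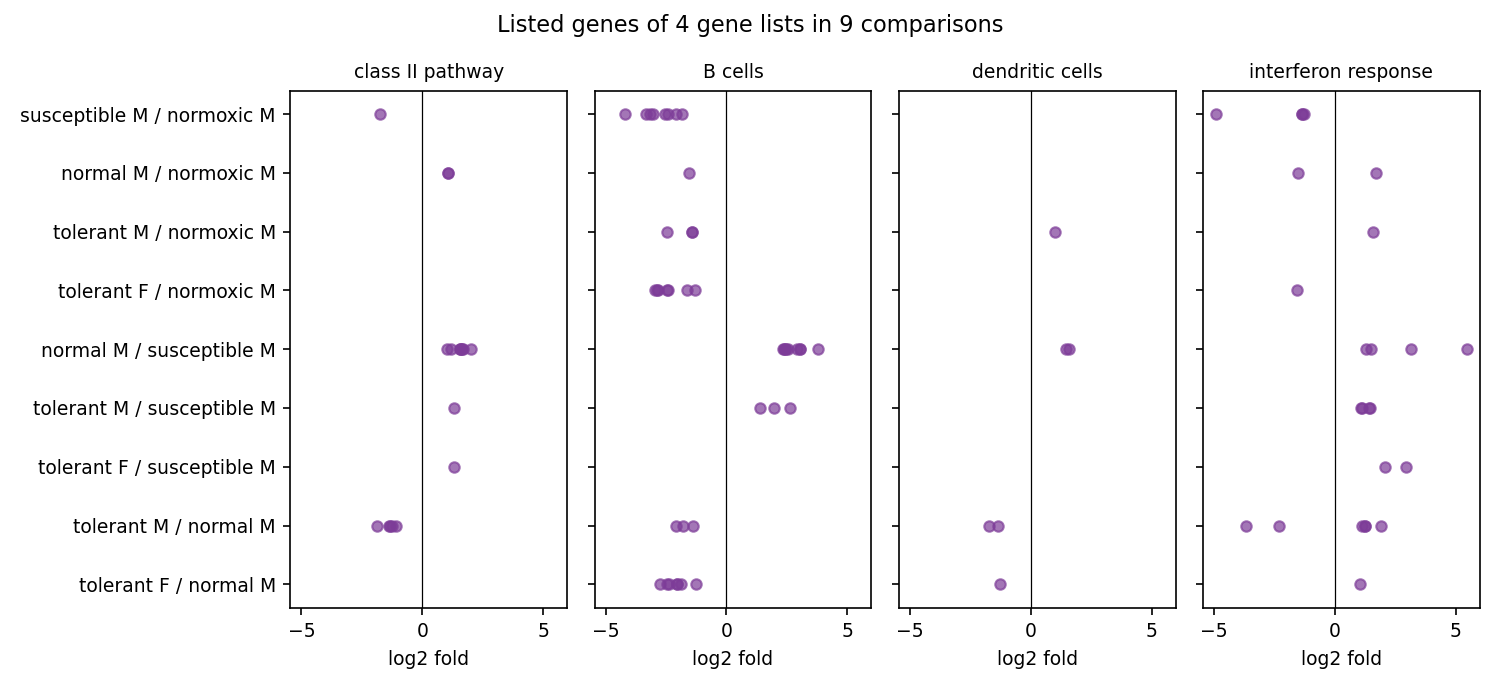
Log2 fold (x axis) of each gene (point) listed under its own symbol, of 4 gene lists, in each of the 9 comparisons (y axis, first library over second), from the authors' deposited tables. Class II and B cell genes stand on the same side for the normal male over the susceptible male and for the tolerant male over the normal male. In the bottom comparison, the tolerant female over the normal male, 7 B cell symbols are lower and no class II gene is listed.

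The gene models most like each class II member were sought among the 349 models with a finite fold in all 3 tables that list it, by the mean absolute difference of log2 fold. For RT1-Bb these were RT1-Da at 0.18, Glrx5, a mitochondrial glutaredoxin, at 0.19 and Zap70, a kinase of T cell receptor signalling, at 0.21. For RT1-Da, LOC100362362 and Snap29, a membrane fusion protein, both stood at 0.13. All 3 tables contain the normal male library, so that the likeness covers 4 libraries and rests on their shared member. The T24 genes were listed in fewer than 3 tables, and none was sought for them.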

How the data were processed

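Per the labels, RNA from lung tissue was extracted with TriReagent and, after TruSeq library preparation, sequenced on a Genome Analyser IIx. The authors deposited 11 tables, of which 2 were identical copies, leaving 9. The deposited fold, a signed score, is a ratio of proportions, negative where the first library is lower, and p-values are FDR-corrected by the authors, per the file headers. Aligner, read counting, build and test: not given in the sources used here. Read counts were not used here.

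Folds were turned into signed log2 values with Python 3.11.15, and figures drawn with matplotlib 3.10.9. A fold absent from the tables was derived by adding log2 folds of the same gene model. In 177 of 177 cases with 3 linked tables the folds closed within 0.001. The code was checked on simulated data. Gene models were kept apart by start and end. Of 1823 models 59 carried more than 1 symbol across the tables, none of them a member, and some of these symbols belong to genes of other chromosomes in RefSeq. List genes were counted by symbol and, chosen after seeing the data, also by gene model for the class I, class II and interferon lists. The background of each table is its share of the 1823 models listed in any table. Symbols were matched to RefSeq (GRCr8), which gave the sequences, and 97.2% of 1260 symbol and chromosome pairs had the deposited chromosome there.

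Members, gene lists and motifs were chosen with earlier results of these data known. Named were all rows of the members, other RT1 symbols and up to 6 genes per list and table. For each class II gene the most alike models were sought, of which 1 is not reported here. Neighbours lay within 1000000 bases. Alternatives were an FDR-corrected p of 0.01, a fold of 4 and each symbol counted once.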

Additional observations from a re-analysis of the deposited data

Results flagged for a closer look

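RT1-Bb and RT1-Da stood on opposite sides of the normoxic male in different exposed males. For RT1-Bb the log2 fold over the normoxic male was 1.05 in the normal male, -0.63 in the susceptible male and -0.83 in the tolerant male, the latter 2 being derived. The susceptible male minus the normal male was thus -1.69 and the normal male minus the tolerant male 1.88. For RT1-Da the log2 folds were 1.08, -0.57 and -0.31 in the same order. The susceptible male minus the normal male was -1.65 and the normal male minus the tolerant male 1.39. For both genes these differences repeat the size of the deposited folds between the exposed males by construction, since the derived values were made from those folds. Whether the exposed animals differ in their response was not tested, since each is 1 library, and the direction below normoxia rests on derived folds under the 2-fold limit.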

How the results depend on the processing

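No paired analysis was possible because each group held 1 library, and for the same reason no replicate could be left out. The stricter limits only remove rows, so no fold or direction could change under them. With the FDR-corrected p limited to 0.01, 7 of 9 rows remained. RT1-T24-1 and the row of RT1-T24-3 over the susceptible male were lost, which left 0 members listed for the tolerant male over the susceptible male. At a fold of at least 4 the T24 rows alone remained, so that 0 members were listed for the normal male over the normoxic and over the susceptible male and 2 for the tolerant male over the normal male. Counting each symbol once changed none of the 9 member counts. With tables limited to 0.01, the 6 derived folds of RT1-Bb and RT1-Da were the same, and that of RT1-T24-3 could not be derived. Of the class I and class II pathway lists together, a fold of at least 4 left 0 genes for the susceptible and the normal male over the normoxic male and for the tolerant female over the susceptible male. It left 2 for the normal over the susceptible male, 1 for the tolerant over the susceptible male, 3 for the tolerant over the normal male and 1 for the tolerant female over the normal male, where an FDR-corrected p of 0.01 left 0. Including gene models under another symbol, an alternative chosen after seeing the data, took these lists from 11 to 12 for the normal over the susceptible male and from 11 to 13 for the tolerant over the normal male, and changed no other count of them. No second path of tables gave a derived fold of a member. The unknown depth limits what the missing rows of the T24 genes can show.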

Other observations

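Of a list of 26 symbols for receptors of MHC molecules and T cell genes, 3 were listed in any table. Klra17, of the Ly49 family of natural killer cell receptors for class I molecules, was 34.2-fold higher in the tolerant male than in the susceptible male in the authors' deposited table, with an FDR-corrected p of 0.0480. Prf1, which encodes perforin of killer cells, was 2.51-fold higher in the tolerant male than in the normal male and 2.41-fold lower in the normal male than in the normoxic male in the authors' deposited tables. Klrk1, the receptor NKG2D, was 6.97-fold higher in the normal male than in the susceptible male in the authors' deposited table. Of 9 lung epithelium markers, 2 were listed in any table, the club cell genes Scgb1a1 and Scgb3a2. Both were lower in the tolerant male than in the normal male, by 2.03-fold and 2.07-fold in the authors' deposited table.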
